A study of Mus musculus with 8 samples.

Results

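The genes described here encode the nuclear subunits of the mitochondrial respiratory chain and ATP synthase, measured in whole brain of Cstf2 D50A mice and wild-type littermates. They were taken by symbol: names beginning Ndufa, Ndufb, Ndufc, Ndufs or Ndufv with a number, the Cox4 to Cox8 subunit names, and every name beginning Atp5 or Uqcr. The rule found 78 of the 25815 genes in the count table. Of these, 73 name subunits: 36 of complex I, 8 of complex III, 14 of complex IV and 15 of complex V. Another 3 are Atp5l pseudogenes, and 2 (Atp5s and Atp5sl) name no subunit of the enzyme. The rule takes no gene of complex II and misses some subunits, such as Cyc1 and Cox4i1, which are given with the related pathways.

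Oxidative phosphorylation takes place in the inner mitochondrial membrane. Complexes I and III and complex IV pass electrons from NADH towards oxygen and pump protons, and complex V, the ATP synthase, uses the returning protons to make ATP. Most subunits are encoded in the nucleus, translated in the cytosol and imported, and they are assembled with a small set of subunits encoded by mitochondrial DNA. Neurons depend heavily on this pathway for the ion pumping that follows electrical activity. CSTF2 is an RNA-binding subunit of the cleavage stimulation factor, which acts when the 3′ end of an mRNA is cleaved and polyadenylated; D50A is a point mutation in its RNA recognition motif.

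RNA-seq of poly(A)-selected RNA covered 8 libraries, each from total brain of a mouse at postnatal day 50. There were 5 libraries of genotype Cstf2D50A, called D50A 1 to D50A 5, and 3 of wild-type littermates, called WT 1 to WT 3. All mice were untreated and came from 1 colony that had been backcrossed for 4 generations to C57BL/6NCrl and then bred within itself. The labels name separate animals, with 1 library from each, so a p-value rests on the variation from library to library, biological and technical together. The numbers of the libraries follow the order of the deposit and pair no animals.

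Libraries held between 13675945 and 24802272 counts, and levels are given as CPM, each count as a share of the TMM-scaled library total in parts per 1000000. Cstf2 ranged from 122 to 135 CPM among the WT libraries and from 65.8 to 129 CPM among the D50A libraries, or from 105 CPM without D50A 3, which held the lowest value; a count per gene cannot show a point mutation. D50A 3, which has the lowest total count, stands apart from all other libraries, so results are given with and without it. Libraries also differed in cerebellar content. The summed level of 6 markers of cerebellar granule cells was 628 to 876 CPM in D50A 2, 3, 4 and 5, against 95.7 CPM in D50A 1 and a WT range of 88 to 94.2 CPM. In bulk tissue, a different share of cells of a type and a different amount of RNA per cell cannot be told apart.

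In WT brain the subunit genes covered a wide range of levels. Per kilobase of principal transcript, the highest were Cox6a1 at 679 ± 45.4 CPM per kb, Cox8a at 599 ± 33.8 and Atp5b at 569 ± 7.85 (SD, n = 3). Cox6a1 and Cox8a are small subunits of cytochrome c oxidase, and Atp5b is the catalytic beta subunit of ATP synthase. Cox6c at 448 ± 36.0 and Cox7c at 358 ± 28.2 CPM per kb came next. The next 4, Ndufa4 (285 ± 12.1), Atp5a1 (281 ± 2.09), Atp5g3 (267 ± 7.24) and Atp5h (263 ± 13.6 CPM per kb), followed. Ndufa4 and Atp5a1 did not differ beyond the SD of Ndufa4, nor Atp5g3 and Atp5h beyond the SD of either. Median levels were 79.4 CPM per kb for complex I genes, 106 for complex III, 130 for complex IV and 164 for complex V. The highest complex I gene by symbol, Ndufa4, is now known as a subunit of complex IV but is counted by symbol with complex I throughout, and the highest complex III gene was Uqcr11 at 238 ± 22.6 CPM per kb.

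Complex IV has several subunits with an alternative form that is used mainly in heart and skeletal muscle or in testis. In WT brain the common form made up nearly all of each pair, as a share of the pair's level per kilobase. Cox6a1 held 99.2% ± 0.0927 against the muscle form Cox6a2, and Cox8a held 99.8% ± 0.0382 against the muscle form Cox8b (SD, n = 3). Cox6b1 held 97.3% ± 0.236 against the testis form Cox6b2, and Cox7b held 99.5% ± 0.154 against Cox7b2. The larger minor shares were those of Cox6b2, at 2.67% ± 0.236, and of Cox7a1, the muscle form of Cox7a2, at 2.4% ± 0.435 in WT (SD, n = 3). In D50A 1, 2, 4 and 5 the Cox7a1 share was between 2.30% and 3.54%, overlapping the WT range of 2.02% to 2.87%, and in D50A 3 it was 2.88%. The order within each pair was therefore the same in every library, including D50A 3.

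Promoters of these genes are known for binding sites of NRF1, of ETS-family factors such as GABP, of YY1 and of SP1. RefSeq windows (GRCm38.p6) from 250 bases before to 50 bases after the start were matched for 63 of the 73 subunit genes, and each motif was searched on both strands. These genes had 68 windows, and shares are given per window. The NRF1 motif GCGCATGC was found for 9 of 63 genes, in 13.2% of their windows and in 2.71% of all 32851 windows. The ETS motif CCGGAAG was found for 14 genes (20.6% of their windows, against 8.86% of all windows). The YY1 motif AAGATGG was found for 11 (16.2%, against 6.34%) and the SP1 motif GGGCGGG for 20 (30.9%, against 25.6%). A match describes letters and is no evidence of binding. The stretches below are shown because they hold such matches close to the start of genes whose levels are described further on. Capitals mark the motif letters, the sequences read 5′ to 3′ along the gene, and bases that an annotated exon covers are left out.
Ndufa11, complex I, chr17:56717686-56717761 on the plus strand, with overlapping NRF1 motifs: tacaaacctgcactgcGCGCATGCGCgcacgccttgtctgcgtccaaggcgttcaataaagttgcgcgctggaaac
Ndufa6, complex I, chr15:82354323-82354442 on the minus strand, with an NRF1 motif: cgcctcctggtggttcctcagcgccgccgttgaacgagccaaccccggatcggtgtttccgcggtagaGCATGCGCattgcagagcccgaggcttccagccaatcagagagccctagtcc
Uqcr11, complex III, chr10:80406831-80406950 on the minus strand, with an ETS motif: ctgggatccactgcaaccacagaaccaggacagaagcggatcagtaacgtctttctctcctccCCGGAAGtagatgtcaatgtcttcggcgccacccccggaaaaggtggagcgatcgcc
Atp5e, complex V, chr2:174464106-174464225 on the minus strand, with an ETS and an SP1 motif: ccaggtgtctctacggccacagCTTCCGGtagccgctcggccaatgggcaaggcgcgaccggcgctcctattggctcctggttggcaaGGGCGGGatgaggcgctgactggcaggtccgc

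The first comparison asked whether the subunit genes differ between D50A and WT brain over all 8 libraries. Summed over the 78 genes, the level was 8897, 9146, 35180, 10100 and 9561 CPM in D50A 1 to 5 and 8473, 9102 and 8841 CPM in WT 1 to 3. D50A 3 was at 4.0 times the WT mean of 8805 ± 316 CPM (SD, n = 3), while the other libraries lay close together. As a share of all counts, without TMM scaling, the genes took 2.78% in D50A 3 (95% Wilson interval 2.772% to 2.789%, counting error only) and 0.857% to 1.06% in the other libraries. By complex, D50A 3 was at 4.63 times the WT mean for complex I, 3.82 for complex III, 4.71 for complex IV and 3.21 for complex V.

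**Figure D1:**
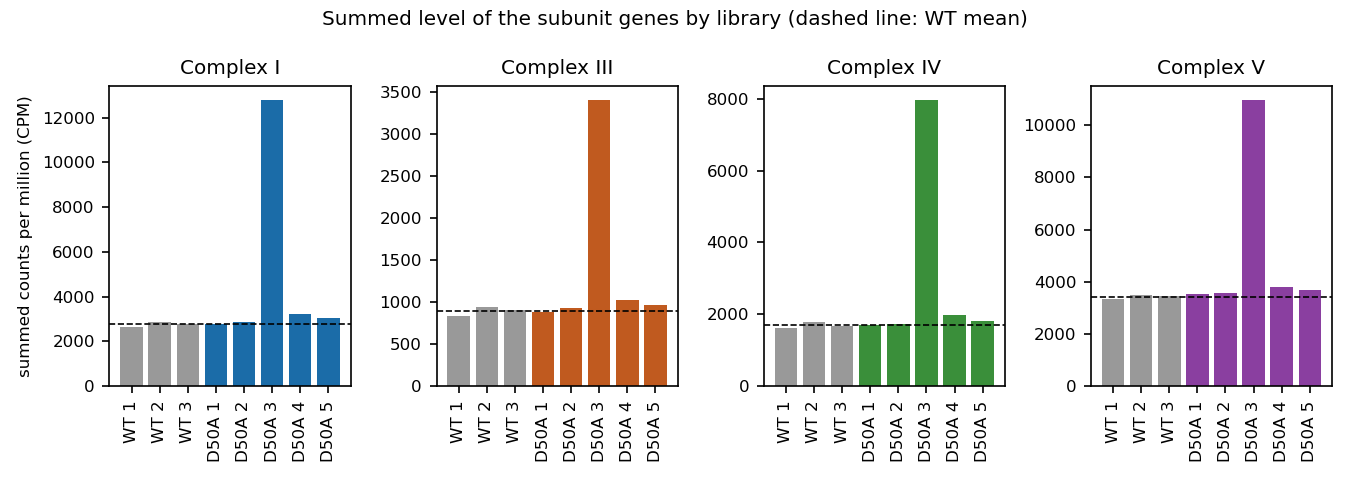
Summed CPM of the subunit genes of each complex in every library (y axis, linear from 0; grey bars WT, coloured bars D50A; dashed line, mean of the WT libraries). D50A 3 is the tallest bar in each panel, and in complex V alone the lowest D50A library (3509 CPM) is above the highest WT library (3476 CPM). Atp5b and Atp5a1 have the highest levels in the complex V sum.

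Of the 78 genes, 74 had enough counts to be tested. Cox7b2 and the pseudogenes Atp5l-ps1, Atp5l-ps2 and Atp5l2-ps did not, with at most 17 counts in a library. The fitted log2 fold change was above 0 for 73 of 74 genes (98.6%, against 48.6% of all 16810 genes tested), and the median was 0.77 against -0.01 for all genes. None was called by edgeR at an adjusted p under 0.05, where the share of all genes called higher was 0.0%, and the smallest adjusted p was 0.837. No gene of the set had an unadjusted p under 0.05, against 1.64% of all genes on the higher side. Limma-voom with quality weights called none of the 74, against 1.87% of all genes called higher. DESeq2 gave no adjusted p for 32 of the 74, so these could not be called by it; it called none of the other 42, against 0.202% of all genes called higher. The spread that D50A 3 adds within the D50A group is large: the SD of the summed level was 11530 CPM over 5 D50A libraries and 526.2 CPM without it.

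Within D50A 3 the size of the difference varied widely between genes. This library was the highest of the 8 for 72 of the 74 genes, against 40.0% of all genes tested, and 66 genes were at least 2-fold above the WT mean (89.2%, against 20.6% of all genes) and 41 at least 4-fold (55.4%, against 5.13%). These folds come from 1 library and have no replicate check. The 4 closest to the WT mean were Ndufb2 at 0.753, Atp5sl at 1.09, Ndufs1 at 1.28 and Atp5a1 at 1.69 times the WT mean, and the highest was Cox7a1 at 8.55.

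In complex I, the accessory subunits, which surround the catalytic core, had a median of 5.06 times the WT mean in D50A 3, with 21 of 29 at least 4-fold. The 7 nuclear core subunits, which carry the flavin and the iron-sulfur clusters, had a median of 2.73, with 2 of 7 at least 4-fold. Ndufb11, an accessory subunit of the membrane arm, was at 81.4, 90.3, 744, 113 and 106 CPM in D50A 1 to 5 and at 77.2, 91.4 and 96.9 CPM in WT. It was 8.40 times the WT mean in D50A 3, and the remaining D50A libraries overlapped WT. Ndufs1, the largest core subunit, was at 105, 121, 143, 116 and 122 CPM in D50A and at 112, 115 and 109 CPM in WT. Its highest value was again in D50A 3, at 1.28 times the WT mean. Ndufa4 was at 168.7, 181, 1150, 225 and 214.6 CPM in D50A and at 165.6, 177.8 and 178.8 CPM in WT, and D50A 2, 4 and 5 were above all WT libraries as well. Ndufb9, an accessory subunit, was at 125, 138, 1011, 163 and 151 CPM in D50A and at 122, 145 and 137 CPM in WT, where only D50A 3, 4 and 5 were above all WT libraries. Of the genes whose promoter stretch is printed, Ndufa11 and Ndufa6 were at 3.80 and 5.36 times the WT mean in D50A 3.

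Ndufb2 (ENSMUSG00000002416, chromosome 6, 39592574 to 39603382, plus strand), also a membrane-arm subunit, was the only one of the 74 with a fitted fold change below 0. Its level was 11.4, 12.4, 10.4, 13.4 and 12.2 CPM in D50A 1 to 5 and 14.1, 13.5 and 13.7 CPM in WT 1 to 3. All 5 D50A libraries were below all 3 WT libraries, with D50A 3 lowest. Such a separation downward was found for 1 of the 74 genes, against 712 of all 16810 genes tested. The fitted log2 fold change was -0.20 ± 0.13 (SE) over 8 libraries and -0.15 ± 0.09 without D50A 3, with edgeR adjusted p of 0.837 and 0.653. Its annotated exons overlap those of Gm42420 on the same strand and of Braf and Gm16272 on the opposite strand, and no source used here states whether reads were assigned by strand.

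Complex III genes were between 2.04 (Uqcrfs1, the Rieske iron-sulfur protein) and 7.4 (Uqcrq) times the WT mean in D50A 3. Uqcrq, a small accessory subunit, was at 103, 114, 735, 130 and 116 CPM in D50A 1 to 5 and at 91.3, 106 and 100 CPM in WT. Uqcr11, a small accessory subunit, was at 107, 106, 579, 128 and 116 CPM in D50A and at 95.7, 116 and 106 CPM in WT. Uqcrh, a hinge protein near cytochrome c1, was at 99.8, 115, 668, 136 and 124 CPM in D50A and at 96.0, 121 and 122 CPM in WT. Apart from D50A 3, both Uqcr11 and Uqcrh overlapped WT. The core proteins had smaller folds in D50A 3: 2.15 for Uqcrc1 and 2.65 for Uqcrc2.

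Complex IV genes ran from 1.91 (Cox8a) to 8.55 (Cox7a1) times the WT mean in D50A 3. Cox6a1 was at 401, 388, 1387, 434 and 405 CPM in D50A 1 to 5 and at 377, 417 and 369 CPM in WT, and Cox6b1 at 138, 139, 571, 156 and 149 CPM in D50A and at 131, 144 and 141 CPM in WT. Cox8a differed least, at 352, 341, 629, 361 and 324 CPM in D50A and at 339, 342 and 308 CPM in WT. These 3 genes overlapped WT in the other D50A libraries. The minor forms were low in all libraries. Cox6a2 was at 4.44, 3.85, 8.05, 4.19 and 3.46 CPM in D50A 1 to 5 and at 3.66, 4.15 and 2.91 CPM in WT, and Cox6b2 at 3.89, 3.4, 9.53, 4.4 and 3.41 CPM in D50A and at 3.18, 3.24 and 3.8 CPM in WT. Cox8b was at 0.662, 0.71, 2.68, 0.901 and 0.297 CPM in D50A and at 0.289, 0.456 and 0.297 CPM in WT, and Cox7b2 at 0.428, 0.304, 1.2, 0.371 and 0.346 CPM in D50A and at 0.385, 0.405 and 0.238 CPM in WT. All 4 were highest in D50A 3 and overlapped WT in the other D50A libraries. Cox7a1 was at 12.03 CPM in D50A 3, and its other values are given with the last comparison.

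In complex V, the parts differed in the same library. The 7 genes of the peripheral stalk and membrane domain had a median of 5.61 times the WT mean in D50A 3, the 3 genes for the rotating c-ring had 2.40 and the 5 genes of the catalytic F1 head had 2.31. Atp5b was at 1155, 1142, 2516, 1177 and 1171 CPM in D50A 1 to 5 and at 1074, 1104 and 1093 CPM in WT. Atp5a1, the alpha subunit, was at 744, 726, 1174, 714 and 732 CPM in D50A and at 698, 688 and 695 CPM in WT. For both of these head subunits every D50A library was above every WT library. Within the F1 head the small epsilon subunit Atp5e stood apart, at 7.76 times the WT mean in D50A 3. The c-ring is built from 1 protein encoded by 3 genes that differ in their import sequence: Atp5g1 was at 301, Atp5g2 at 108 and Atp5g3 at 622 CPM in D50A 3, which is 2.40, 2.33 and 3.26 times the WT mean.

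**Figure D2:**
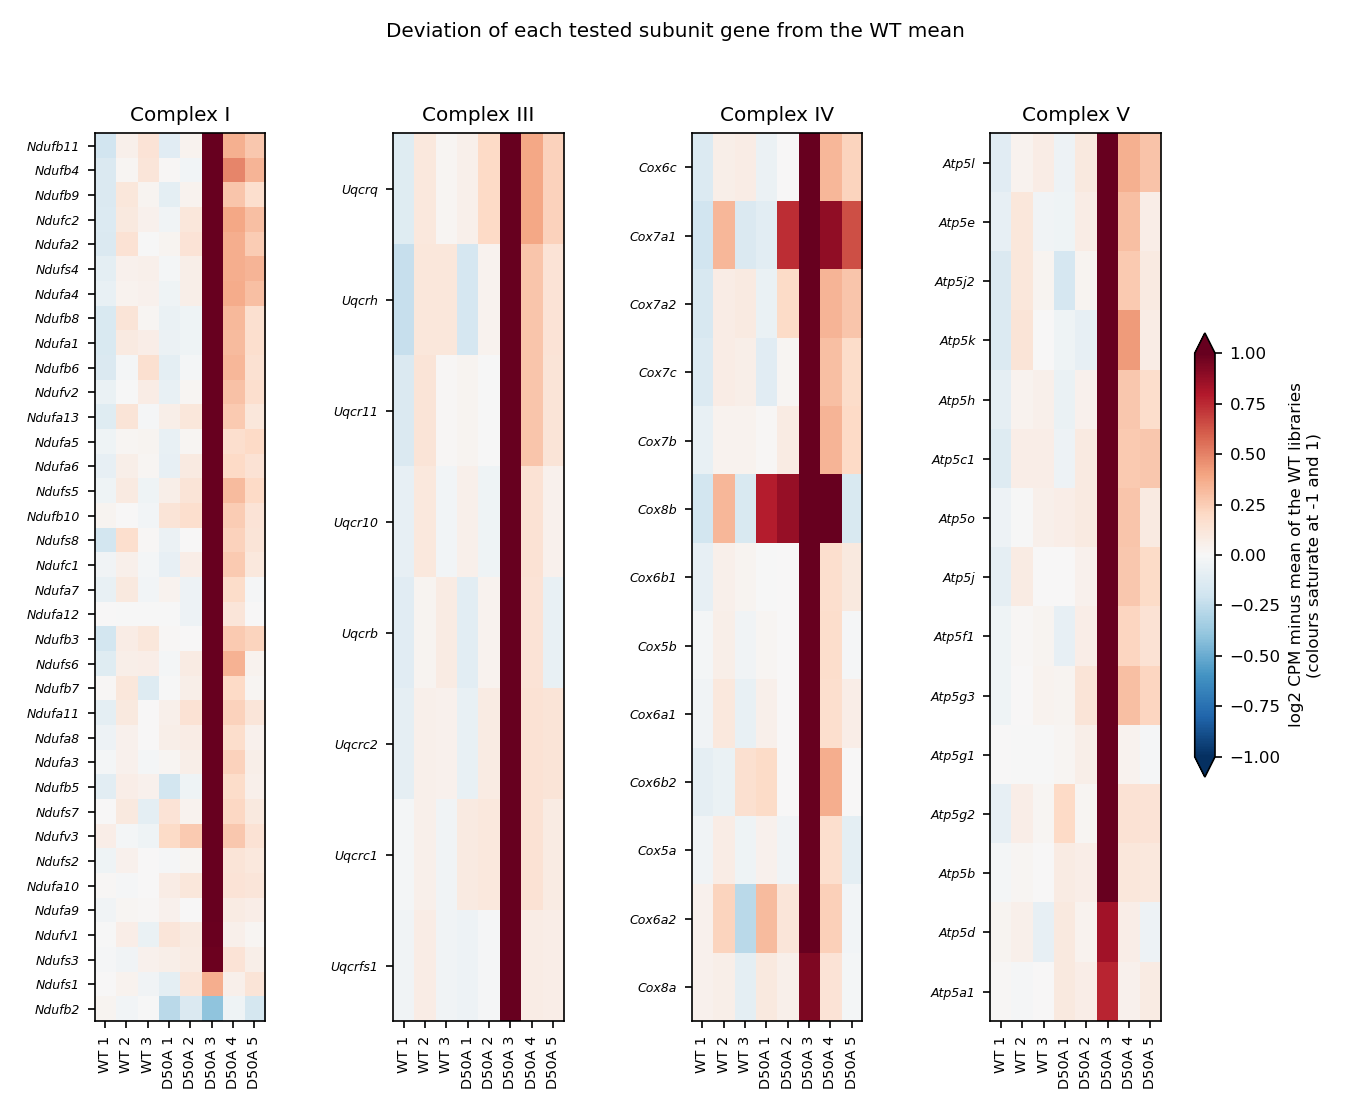
Each row is a tested subunit gene and each column a library; colour gives log2 CPM minus the mean of the 3 WT libraries, saturating at -1 and 1, with genes ordered within a complex by their value in D50A 3. The D50A 3 column is dark red except for Ndufs1 and Ndufb2, and the D50A 4 column is mostly pale red, with a median of 0.24.

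Most of these mRNAs are short, and in D50A 3 the difference from WT went with transcript length. The median principal transcript of the 72 tested subunit genes was 745 nt, against 2770 nt for all tested genes, and 68.1% against 9.77% were at most 1000 nt long. The core and accessory genes of complex I also differ in this way, with medians of 1623 and 732 nt. The comparison with other genes was made among genes with a mean log2 CPM over 4. Up to 600 nt, the median difference in D50A 3 was 2.42 on the log2 scale for 19 subunit genes and 2.39 for 70 other genes. Between 600 and 1000 nt it was 2.37 for 26 subunit genes and 1.84 for 331 others, and between 1000 and 2000 nt 1.65 for 18 and 0.93 for 1594. Only 4 subunit genes of that level had longer transcripts. Among other genes the median was -0.05 from 2000 to 4000 nt and -0.98 above that. Over the 72 subunit genes, Spearman's rho between length and difference was -0.42 in D50A 3 and -0.48 in D50A 4, but also -0.50 in WT 2 and 0.44 in WT 1, and between -0.04 and 0.11 in the remaining libraries. These values describe single libraries, in which all genes share 1 RNA sample, and the part of length in the results was not tested. The folds of single genes with and without a promoter motif overlapped in D50A 3. The median fold was 3.80 with and 4.44 without the NRF1 motif, and 5.18 with and 4.19 without the ETS motif. It was 4.19 with and 4.44 without the YY1 motif, and 3.59 with and 4.75 without the SP1 motif.

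**Figure D3:**
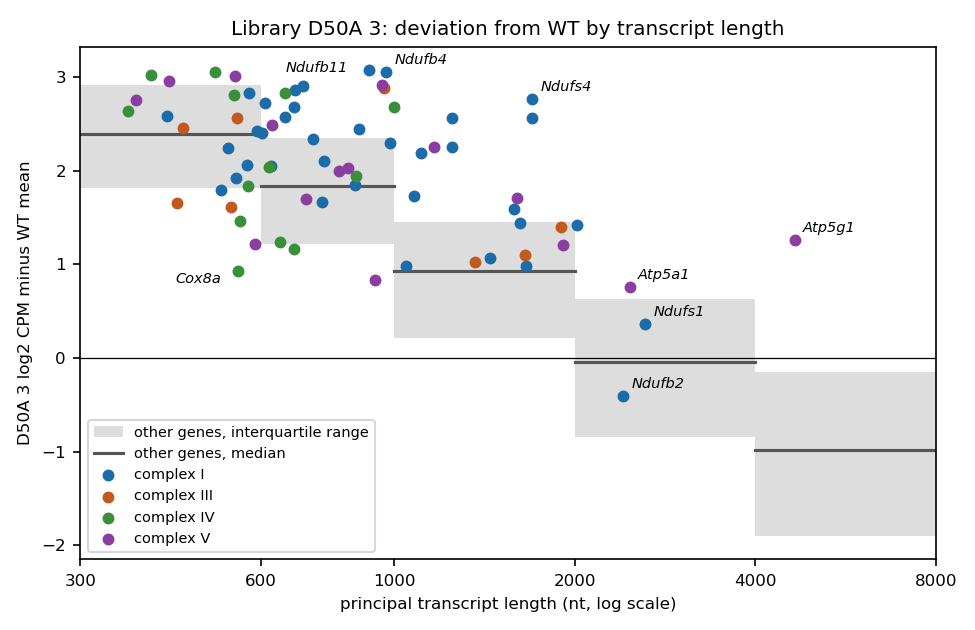
Difference of D50A 3 from the WT mean (y axis, log2 CPM) against principal transcript length (x axis, nt, log scale) for the tested subunit genes (points, coloured by complex); grey bands and lines give the interquartile range and median of other genes with a mean log2 CPM over 4 in 5 length classes. Subunit genes up to 600 nt centre on the median of other genes (2.42 against 2.39), and those of 1000 to 2000 nt lie above it (1.65 against 0.93); the printed length of Atp5g1 and Ndufb2 rests on annotated transcripts of very different lengths.

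Other measures also set D50A 3 apart. Mitochondrially encoded mRNAs took 11.86% of its counts (95% Wilson interval 11.85% to 11.88%), against 4.08% to 5.14% in the other libraries. The summed level of 4 hemoglobin genes of red cells was 2340 CPM, against 301 to 537 CPM, and that of 5 genes of mature oligodendrocytes 19100 CPM, against 8530 to 10400 CPM. The 5 neuronal markers summed to 3940 CPM, against 4230 to 4800 CPM. No listed marker of these cell types was at 0 in all libraries, and their part in the difference was not tested.

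Without D50A 3, 4 D50A libraries were compared with 3 WT libraries, and the differences were small. The summed level was 9426 ± 526.2 CPM in D50A (SD, n = 4) and 8805 ± 316 CPM in WT (n = 3), a ratio of 1.07, and D50A 1 was below WT 2. By complex the ratio was 1.08 for complex I, 1.06 for complex III, 1.07 for complex IV and 1.07 for complex V. The complex V sum was 3509, 3569, 3814 and 3698 CPM in D50A 1, 2, 4 and 5 and 3326, 3476 and 3439 CPM in WT, so these groups did not overlap. The gap was narrow, and Atp5b (1090 CPM) and Atp5a1 (693.5 CPM) held much of the WT mean of 3414 CPM. Taken singly, only 3 of the 15 complex V genes (Atp5a1, Atp5b and Atp5o) had every D50A library above every WT library. For complexes I, III and IV the lowest D50A library was below the highest WT library.

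The fitted log2 fold change was above 0 for 73 of 74 genes (98.6%, against 49.4% of all 16754 genes), with a median of 0.11 against -0.00173 for all genes. By complex the medians were 0.11 (I), 0.08 (III), 0.14 (IV) and 0.12 (V). Without D50A 4 the median of the set was 0.0645, that of complex I 0.0636, of III 0.0398 and of IV 0.0582. Leaving out WT 1 gave 0.0261 for complex III and 0.0911 for complex IV, leaving out WT 2 gave 0.126 for complex III, and leaving out D50A 1 gave 0.164 for complex I and 0.131 for complex III. Library by library, the median difference from the WT mean was 0.00649, 0.05, 0.24 and 0.12 on the log2 scale in D50A 1, 2, 4 and 5. Measured against the same mean, WT 1 was at -0.08, WT 2 at 0.06 and WT 3 at 0.01. D50A 1 and D50A 2 thus lay within the WT range, and D50A 4 was the highest of the 7 libraries for 62 of the 74 genes, against 14.9% of all genes tested. WT 1 was the lowest for 45, against 1934 of all 16810 genes. The shares over all genes are not matched for transcript length. At a mean log2 CPM over 4, subunit genes up to 600 nt had a median of 0.27 in D50A 4, others 0.23. The medians were 0.12 and 0.0956 in D50A 5, 0.03 and 0.006 in D50A 2, and -0.02 and -0.05 in D50A 1. Of the others, 88.6% were above 0 in D50A 4. Between 600 and 1000 nt the medians of subunit genes and others were 0.27 and 0.15 in D50A 4 and 0.164 and 0.0777 in D50A 5. They were 0.035 and 0.0187 in D50A 2, and 0.000597 and 0.00421 in D50A 1. Between 1000 and 2000 nt the gaps were wider: 0.164 and 0.0549 in D50A 4 and 0.105 and 0.0327 in D50A 5. In D50A 2 they were 0.068 and 0.0197, and in D50A 1 -0.00754 and 0.046. The part of length was not tested.

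No gene passed the threshold in this fit. edgeR called 0 of 74 higher (0.0% of all genes) and 0 lower (0.0%), and the smallest adjusted p was 0.285. An unadjusted p under 0.05 was reached by 5 genes (6.76%), all of them higher, against 5.07% of all genes on that side. DESeq2 and limma-voom with quality weights called 0 of the 74, against 0.716% and 1.84% of all genes called higher. In 8 genes every D50A library was above every WT library (10.8%, against 4.79% of all genes; over 8 libraries the same 8 genes, against 3.22%): Ndufa10, Ndufb10, Ndufs3, Ndufv3, Uqcrc1, Atp5a1, Atp5b and Atp5o.

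**Figure D4:**
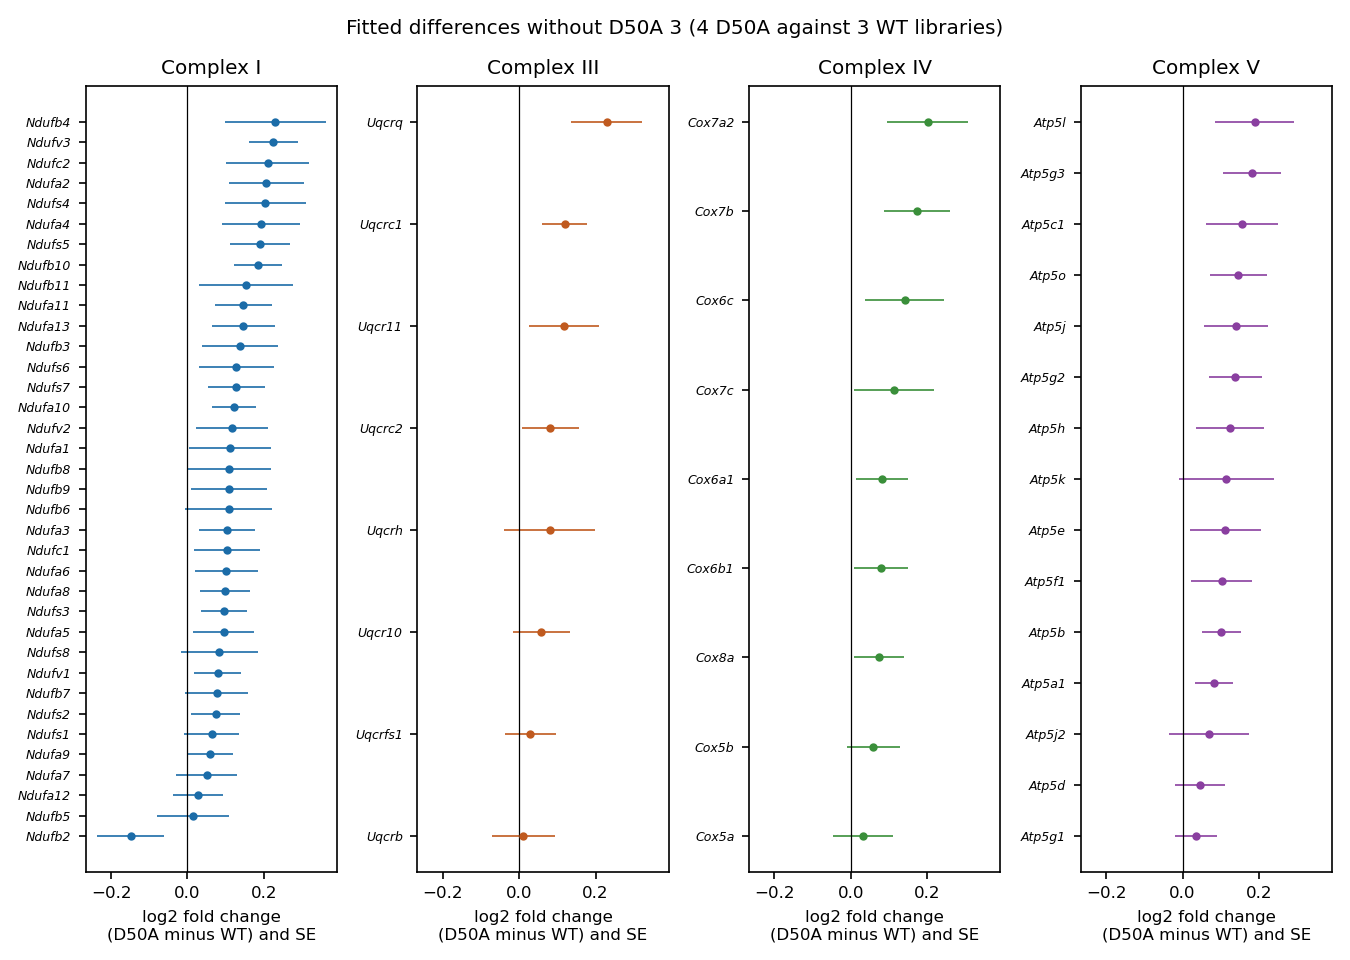
Fitted log2 fold change (x axis, D50A minus WT, bars give the SE) without D50A 3 for the subunit genes with a WT mean of at least 5 CPM, by complex. All points but Ndufb2 are right of 0, from Uqcrb (0.01) to Ndufb4 (0.23), and no gene has an adjusted p under 0.05 (smallest 0.285, Ndufv3).

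Among complex I genes, Ndufv3 (ENSMUSG00000024038, chromosome 17, 31520115 to 31531331), a flavoprotein-fraction accessory subunit, had the smallest p. Its level was 48.1, 50.6, 50.9 and 46.6 CPM in D50A 1, 2, 4 and 5 and 44.2, 41.6 and 40.9 CPM in WT, with no overlap. The log2 fold change was 0.23 ± 0.07 (SE), with an edgeR adjusted p of 0.285. Ndufb10, an accessory subunit, was at 94.4, 96.9, 103 and 95.03 CPM in D50A and at 87.9, 86.4 and 84.5 CPM in WT, also without overlap (log2 fold change 0.18 ± 0.06, edgeR adjusted p 0.369). Ndufa10 was at 101, 104, 106 and 104 CPM in D50A and at 96.6, 95.4 and 96.1 CPM in WT, a narrow but complete separation. Ndufs5, an accessory subunit, was at 79.6, 83.5, 94.9 and 87.8 CPM in D50A and at 74.1, 81.0 and 73.9 CPM in WT, where D50A 1 overlapped WT 2.

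In complex III, Uqcrc1 (a core protein) was at 192, 194, 199 and 191 CPM in D50A 1, 2, 4 and 5 and at 178, 187 and 176 CPM in WT, without overlap. Uqcrq, on chromosome 11, had a log2 fold change of 0.23 ± 0.09 (SE) with an edgeR adjusted p of 0.464, and D50A 1 overlapped WT. The second core protein, Uqcrc2, was at 168.8, 188.3, 197.1 and 195 CPM in D50A and at 167.3, 184.7 and 183.1 CPM in WT. In complex IV, Cox7a2 was at 91.4, 109, 121 and 116 CPM in D50A and at 85.5, 100 and 102 CPM in WT, and Cox7b at 116, 122, 146 and 132 CPM in D50A and at 110, 118 and 118 CPM in WT. In both genes D50A 1 alone lay inside the WT range.

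In complex V, the values already given for Atp5a1 and Atp5b correspond to log2 fold changes of 0.08 ± 0.05 and 0.10 ± 0.05 (SE). Atp5o, which joins the stalk to the head, was at 80.5, 81.7, 93.1 and 81.8 CPM in D50A 1, 2, 4 and 5 and at 74.2, 76.7 and 79.4 CPM in WT. Its groups did not overlap. Among the c-ring genes, Atp5g3 was at 195, 208, 235 and 222 CPM in D50A and at 186, 192 and 196 CPM in WT, Atp5g2 at 53.0, 46.8, 51.0 and 50.7 CPM in D50A and at 43.4, 48.4 and 46.6 CPM in WT, and Atp5g1 at 128, 131, 128 and 124 CPM in D50A and at 126, 125 and 125 CPM in WT. Atp5g1 had the smallest difference of the 3 (log2 fold change 0.04 ± 0.06). Atp5g3 had 0.18 ± 0.08, with an edgeR adjusted p of 0.484.

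Leaving out D50A 1 as well leaves D50A 2, 4 and 5 against WT. This fit is a leave-one-out of the previous comparison, and it was singled out and checked further after seeing the data. Its D50A libraries are those with high levels of cerebellar markers. Here edgeR called 9 of 73 genes higher (12.3%, against 3.36% of all genes) and none lower (3.06% of all genes), and 36 of 73 had an unadjusted p under 0.05, against 22.2% of all genes in either direction. In 27 genes (37.0%, against 11.5%) every D50A library was above every WT library. The 9 were Ndufc2, Ndufs4 and Ndufv3 of complex I, Ndufa4, which is counted with complex I by its symbol, Uqcrq of complex III, Cox7a1 and Cox7a2 of complex IV, and Atp5g3 and Atp5l of complex V. The fitted log2 fold change was above 0 for 72 of 73 genes (98.6%, against 51.1% of all genes), with a median of 0.15 against 0.00477 for all genes, or 0.0946 without D50A 4. Here too the shares over all genes are not matched for transcript length.

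Of the genes that rose in this comparison, Uqcrq had the smallest edgeR adjusted p (0.0267), with a log2 fold change of 0.29 ± 0.07 (SE). Cox7a1 (ENSMUSG00000074218, chromosome 7, 30184144 to 30186078) had the largest change, 0.79 ± 0.22 (edgeR adjusted p 0.0458), at a low level: 2.38, 2.65 and 2.23 CPM in D50A 2, 4 and 5 against 1.20, 1.77 and 1.25 CPM in WT and 1.29 CPM in D50A 1. Ndufs4, an accessory subunit of the matrix arm, was at 58.2, 72.0 and 70.6 CPM in D50A 2, 4 and 5 and at 52.1, 57.7 and 58.0 CPM in WT. Atp5l, subunit g of the membrane domain, was at 89.9, 107 and 102 CPM in D50A and at 77.9, 86.1 and 88.6 CPM in WT. In both, D50A 2 lay just above the highest WT library.

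The calls depended on single libraries: 0 of the 9 remained when D50A 4 or D50A 5 was left out, 1 gene was called without WT 1 and 1 without WT 3, 5 without WT 2 and 28 without D50A 2. In the same fit all 6 granule cell markers and all 4 Purkinje cell markers were called higher, with median log2 fold changes of 4.85 and 2.10. Lower calls were made for 2 of 5 cortex and hippocampus markers, 1 of 5 neuronal markers (Map2) and 1 of 4 microglia markers (Cx3cr1). Mobp, 1 of 5 markers of mature oligodendrocytes, and Aqp4, 1 of 4 of astrocytes, were called higher. Over all genes 3.36% were called higher and 3.06% lower. Purkinje markers summed to 1020, 1100 and 1200 CPM in D50A 2, 4 and 5 and to 729 to 791 CPM in WT; cortex and hippocampus markers to 231, 204 and 211 CPM and 245 to 276 CPM. Genotype and cerebellar content cannot be told apart among these 6 libraries. D50A 1, the mutant library with cerebellar markers at the WT level, had a median difference of 0.00649 for the genes of the set, with 38 of 74 above and 36 below the WT mean. On the same measure D50A 2, 4 and 5, with high cerebellar markers, had 0.0549, 0.244 and 0.115, and WT 2 had 0.0568. The part of cerebellar content was not tested.

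Genes of related pathways were described from lists that share no member with the set. None of their genes was called over 8 libraries or without D50A 3 by edgeR. The 11 subunit genes that the symbol rule leaves out, such as those of complex II, had a median log2 fold change of 0.71 over 8 libraries and 0.12 without D50A 3. Among them Ndufab1, the mitochondrial acyl carrier protein of complex I, was at 75.77, 74.99, 267.7, 89.3 and 81.9 CPM in D50A 1 to 5 and at 69.13, 74.92 and 72.29 CPM in WT. Cyc1, cytochrome c1 of complex III, was at 147, 145, 368, 153 and 144 CPM in D50A and at 138, 141 and 131 CPM in WT. Both were above all WT libraries in every D50A library, as were 3.22% of all genes tested. For Ndufab1 the margin was very small, with D50A 2 at 74.99 and WT 2 at 74.92 CPM. Both genes were taken from the list for their small p without D50A 3.

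Assembly factors help to build the complexes without staying in them. Median log2 fold changes over 8 libraries and without D50A 3 were 0.34 and 0.04 for 13 complex I factors, 0.33 and 0.09 for 5 complex III factors, 0.19 and 0.08 for 16 complex IV factors, and 0.27 and -0.00101 for 4 genes of complex V assembly and inhibition. The median fold in D50A 3 was 2.5, 1.97, 2.07 and 1.95 for these lists. Single genes ranged widely in D50A 3: among the complex IV factors, Cox15, which acts in heme A synthesis, was at 0.497 times the WT mean and Pet100 at 9.74, above every tested subunit gene of the set, and 4 of 16 were below the WT mean. Other examples are Ndufaf2, at 75.2 CPM in D50A 3 and 13.3 to 18.2 CPM elsewhere, Coa3, at 261 CPM and 49.7 to 61.1 CPM, and Atpif1, the inhibitor of ATP synthase, at 91.9 CPM and 18.8 to 26.6 CPM.

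For the citric acid cycle (13 genes) the median fold in D50A 3 was 1.83 and the median log2 fold change without it was 0.05. Idh3b, a subunit of isocitrate dehydrogenase, was at 368 CPM in D50A 3 and at 186 to 210 CPM elsewhere. For 11 regulators of mitochondrial biogenesis the median fold in D50A 3 was 1.14, and 5 of 11 were below the WT mean. They ran from 0.157 times the WT mean for Pprc1, a coactivator of the PGC-1 family, to 2.43 for Tfb1m. Esrra was at 88.2 CPM in D50A 3 and at 54.7 to 65.1 CPM elsewhere. Mitochondrially encoded mRNAs had a median fold of 3.45 in D50A 3 and a median log2 fold change of -0.00125 without it, with 5 of 12 above 0. In D50A 2, 4 and 5 against WT, 2 of these 12 were called higher and no gene of the other pathway lists was called.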

How the data were processed

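The deposited table holds the authors' unnormalized read counts for each gene in 8 brain libraries of poly(A)-selected RNA. The submitters' processing notes name STAR 2.5, HTSeq 0.6.1, CASAVA 1.8 and DESeq2 2, and the build mm10. No source used here gives the annotation, the strand setting or the handling of reads that map to several places, such as processed pseudogenes. Groups came from the genotype label. Counts of all genes were tested with edgeR 4.0.16 (quasi-likelihood, filterByExpr, TMM, Benjamini-Hochberg adjustment over all genes tested, threshold 0.05) in R 4.3.3, over 8 libraries and without D50A 3. Log2 CPM uses a prior count of 2, and an SE is the fold change over the square root of F. The script was tested on simulated counts with known changes.

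Alternatives were DESeq2 1.42.0, limma 3.58.1 (voom with quality weights), RLE scaling, no filter, removal of mitochondrially encoded and hemoglobin genes, and each library left out in turn. Transcript lengths are those of GENCODE M21 principal transcripts, and 25484 of 25815 gene identifiers matched. The exons of 24 of the 78 genes overlap a gene on the opposite strand and those of 5 a gene on the same strand. Genes printed with values in every library are, per complex, the 4 with the smallest unadjusted p without D50A 3 and the 2 with the highest WT level per kilobase, and the paralogue groups; for each related pathway the rule takes the 2 genes with the smallest such p, of which some are printed. Ndufb2, Ndufb11, Ndufs1, Ndufs4, Atp5l, Cox15 and Pprc1 were chosen after their values were seen, as were the printed promoters. The genes and all lists were chosen with earlier results of these data known.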

Additional observations from a re-analysis of the deposited data

Results flagged for a closer look

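In the D50A group, 1 of 5 libraries, D50A 3, lay far from the other 4: its gap to the nearest library, divided by the range of the group, was above Dixon's 95% critical value of 0.71 for the sums and for each of the 27 genes named by rule. Chance marks about 1 group in 20. The sums and genes of D50A 3 share 1 RNA sample, so they are not separate checks. That library was also set apart with earlier results of these data known. The sums in D50A 3 were 35180 CPM for all 78 genes (2.78% of counts), 12780 CPM for complex I, 3398 for complex III, 7961 for complex IV and 10960 for complex V. Complex I genes in D50A 3 were Ndufa4 at 1150 CPM, Ndufb9 at 1011, Ndufb10 at 436.5, Ndufs5 at 403.7, Ndufa10 at 258.1 and Ndufv3 at 127.9. Complex III genes were Uqcrq at 734.6 CPM, Uqcrh at 668, Uqcr11 at 579.3, Uqcrc2 at 472.3 and Uqcrc1 at 387.3. Complex IV genes were Cox6a1 at 1387 CPM, Cox7b at 738.2, Cox7a2 at 679.6, Cox8a at 628.6, Cox6b1 at 570.9, Cox7a1 at 12.03, Cox6b2 at 9.529, Cox6a2 at 8.049, Cox8b at 2.683 and Cox7b2 at 1.203. Complex V genes were Atp5b at 2516 CPM, Atp5a1 at 1174, Atp5g3 at 621.7, Atp5o at 315, Atp5g1 at 301.3 and Atp5g2 at 107.6.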

How the results depend on the processing

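Over 8 libraries DESeq2 called 34 genes higher and 6 lower and limma-voom with quality weights called 315 and 202; under voom the median log2 fold change was 0.142 for all genes of the set, 0.145 for complex I, 0.113 for III, 0.164 for IV and 0.146 for V. With each library left out in turn, 0 to 26 genes were called higher and these medians were 0.111 to 0.937, 0.109 to 1.03, 0.0809 to 0.657, 0.141 to 0.903 and 0.115 to 0.915, the lowest without D50A 3. Without D50A 3, calls were 120 higher and 41 lower by DESeq2, 71 and 14 with no filter, 309 and 200 by voom, and 0 to 558 and 0 to 507 with each library left out; calls in the set were 0 to 9, with 9 only without D50A 1, and medians were 0.0645 to 0.153 for the set, 0.0636 to 0.164 for complex I, 0.0261 to 0.131 for III, 0.0582 to 0.163 for IV and 0.0851 to 0.164 for V. In D50A 2, 4 and 5 against WT, voom called 853 genes lower and 15 of the set higher. With each of these libraries left out, 264 to 1025 genes were called higher and 86 to 1122 lower, 0 to 28 of the set were called higher, and medians were 0.0946 to 0.2 for the set, 0.0987 to 0.202 for complex I, 0.0655 to 0.156 for III, 0.0526 to 0.221 for IV and 0.0958 to 0.202 for V. Directions turned for Uqcrh without D50A 3 and WT 1 (-0.0269; 0.16 at the highest, without D50A 1) and for Cox6a2 in D50A 2, 4 and 5 without WT 3 (-0.0179; 0.224 at the highest, without WT 2). All 329 values of single genes over 8 libraries kept their direction and side of the threshold. Another 9 had no adjusted p from DESeq2 and are not counted. Without D50A 3, 302 of 309 values kept both, 6 gained a call and 1 turned. In D50A 2, 4 and 5 against WT, 163 of 200 kept both, 27 lost the call, 9 gained it and 1 turned. The causes were not tested. No paired analysis was possible because the replicate numbers follow the order of the deposit and pair no animals. The medians of the 3 WT libraries had an SD of 0.0686 on the log2 scale; the size of shift that 4 against 3 animals can detect was not measured.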
